A study of Mus musculus with 6 samples.

Results

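*Trp53*, the gene of the tumour suppressor p53, and 9 of its target genes were followed in the liver of mice with and without an intact TRIM24 RING domain. These 10 of the 21528 genes listed in any library were chosen by name, because TRIM24 is an E3 ubiquitin ligase that can mark p53 for degradation and the knockin replaces cysteines of its RING. The targets were *Cdkn1a*, *Mdm2*, *Ccng1*, *Bax*, *Sesn1*, *Sesn2*, *Trp53inp1*, *Zmat3* and *Phlda3*. The series holds 3 WT and 3 TRIM24C52/55A livers, with 1 library per mouse and replicates 1 to 3 in each genotype. All 6 mice were of the C57BL/6 strain, 5 months old, and had been fed a high-fat diet with 60% fat for 3 months, so the diet is shared by both genotypes. The TRIM24C52/55A mice were homozygous for alanine in place of cysteines 52 and 55 in the endogenous gene, in every cell of the body, and the WT mice were littermates from crosses between heterozygotes. Sex is not given in the labels. For its other liver measurements in 5-month-old mice of this line on the high-fat diet, the paper names males. The question was whether the transcripts of p53 and its targets differ between these livers.

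p53 is a transcription factor that is made constantly and kept scarce by ubiquitin ligases, chiefly MDM2, which is itself a p53 target and closes a feedback loop. When damage or nutrient stress stabilises the protein, it binds a recognition element built from a pair of decamers and raises genes for cell cycle arrest, apoptosis, antioxidant defence and metabolic restraint. Its control acts mainly on the protein, so the RNA level of *Trp53* does not report p53 activity, and its targets are read for that purpose although many of them also answer to other signals.

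RNA levels are given in FPKM, the fragments of a gene scaled for transcript length and for the mapped fragments of the library. No gene was listed at 0 in a library, and a gene left off a library's list was taken as 0. Of the 21528 genes, 12225 had a mean of at least 0.5 FPKM and were tested on log2(FPKM + 1) with limma. The Benjamini-Hochberg adjustment ran over all of them, with a threshold of 0.05. At this threshold 944 genes differed between genotypes (7.72%), 200 higher (1.64%) and 744 lower (6.09%) in the TRIM24C52/55A liver. The split moved to 249 higher and 410 lower with median-of-ratios scaling. The groups did not overlap, whatever the test, for 6.31% of genes in the higher direction and 22.5% in the lower direction. All 10 members passed the filter. Total depth is not recoverable from FPKM, but the steps between low values put the libraries within 0.959 and 1.05 times the depth of WT replicate 1. In bulk tissue, fewer cells of a type and less RNA per cell cannot be told apart.

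The promoters of the members are shown first, since p53 acts on direct targets through its recognition element. Sequence outside the windows described here was not searched. RefSeq start-site windows on GRCm38.p6, from 250 bases before to 50 bases after a start, were found for 8 of the 10 members, in 10 windows, and none for *Trp53inp1* and *Zmat3*. They were searched for the p53 decamer consensus, which reads the same on both strands and has a core of CNNG with A or T at its middle bases. An exact decamer was present in 6 of the 10 windows, each of a different gene, and in 8.36% of all 32851 windows of 27025 genes. Decamers paired within 13 bases of each other with at most 1 mismatch occurred in 0.417% of all windows and, among the members, in *Cdkn1a* alone. The last 8 bases of the *Phlda3* window fit the start of a decamer. The window ends there, so the search could not see whether that decamer is complete. The *Cdkn1a* window at the start that the files use, with all matching decamers in capitals, and the *Phlda3* window, with none complete, are these:
Cdkn1a, chr17:29090729-29091028, plus strand: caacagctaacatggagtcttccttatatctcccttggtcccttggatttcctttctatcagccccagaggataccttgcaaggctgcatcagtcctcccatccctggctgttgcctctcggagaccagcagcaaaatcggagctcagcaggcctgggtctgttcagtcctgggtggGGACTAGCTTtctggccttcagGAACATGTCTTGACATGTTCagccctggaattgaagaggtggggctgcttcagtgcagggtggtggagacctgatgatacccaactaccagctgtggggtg
Phlda3, chr1:135765835-135766134, plus strand: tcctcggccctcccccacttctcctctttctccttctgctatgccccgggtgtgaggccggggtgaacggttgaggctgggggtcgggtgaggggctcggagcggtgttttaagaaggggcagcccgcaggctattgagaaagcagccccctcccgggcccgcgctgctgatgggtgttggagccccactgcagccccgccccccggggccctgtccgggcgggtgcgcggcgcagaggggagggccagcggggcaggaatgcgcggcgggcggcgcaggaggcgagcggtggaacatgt

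The *Cdkn1a* window holds a pair with no spacer and 1 mismatch, chr17:29090928-29090947, which lies 51 to 32 bases before the upstream start of *Cdkn1a*. Pairs of that kind, with no spacer, occurred in 0.0548% of all windows. Another exact decamer lies 12 bases ahead of this pair. The second start site of *Cdkn1a*, farther downstream with its window at chr17:29093519-29093818, had no match. *Phlda3*, *Sesn2* and the first of the *Sesn1* windows had no exact match inside the window, and that of *Phlda3* ends within a possible one. The other exact decamers, in capitals with 15 bases on each side, stood alone and are printed to show how they differ from the paired element of *Cdkn1a*:
Trp53, chr11:69580269-69580308, plus strand: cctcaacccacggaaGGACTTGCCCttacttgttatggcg
Mdm2, chr10:117710920-117710959, minus strand: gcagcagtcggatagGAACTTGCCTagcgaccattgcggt
Ccng1, chr11:40755447-40755486, minus strand: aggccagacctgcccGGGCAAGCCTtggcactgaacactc
Bax, chr7:45467075-45467114, minus strand: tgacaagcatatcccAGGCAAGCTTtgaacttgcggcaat
Sesn1, chr10:41887251-41887290, plus strand: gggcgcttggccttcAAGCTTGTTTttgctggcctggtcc

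These matches are letters in a window of 300 bases, and no binding was measured. A lone decamer or no match in a window does not say that a gene is no direct target, since elements elsewhere were not searched.

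Of the 10 members, 1 rose in the TRIM24C52/55A liver, *Phlda3*, and none fell (limma, Benjamini-Hochberg adjustment). Against the 1.64% of all tested genes that rose, a count of 1 in 10 is a single gene. At an unadjusted p under 0.05 there were 2 of 10, *Phlda3* and *Cdkn1a*, beside 23.6% of all genes tested. *Trp53* itself did not pass the test. The median log2 fold change of the members was 0.06, beside -0.08 over all genes tested, and 6 members lay above 0. With median-of-ratios scaling, which sets the median of all genes to 0.01, the members' median was 0.14 and all 10 lay above 0. *Phlda3* was the member whose groups did not overlap.

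**Figure D1:**
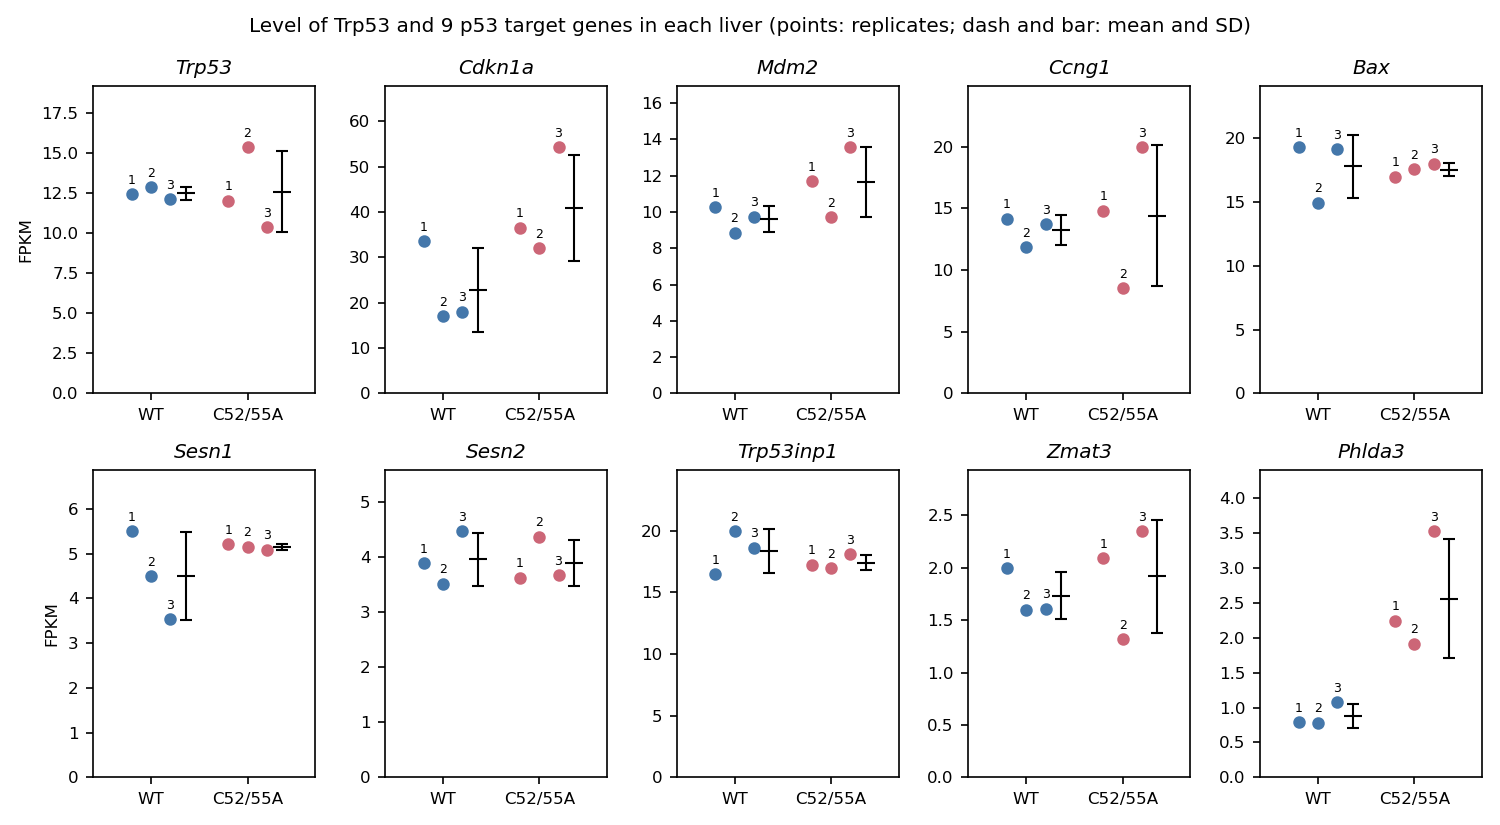
FPKM of each member in the 3 WT and 3 TRIM24C52/55A (C52/55A) livers. Each point is a library with its replicate number, the dash and bar beside the points give the mean and SD, and every axis starts at 0. The 3 TRIM24C52/55A points of Phlda3 lie above all WT points, and WT replicate 1 of Cdkn1a lies among the TRIM24C52/55A points.

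*Trp53* measured 12.4, 12.9 and 12.1 FPKM in the WT livers and 12.0, 15.3 and 10.4 FPKM in the TRIM24C52/55A livers (values are always in the order of replicates 1, 2 and 3). The knockin livers held both the highest and the lowest value, around nearly the same mean. The means were 12.5 ± 0.379 and 12.6 ± 2.53 FPKM (SD, n = 3 each), and the log2 fold change was -0.00 with a 95% interval of -0.30 to 0.30 (adjusted p = 0.988, limma). The gene lies at chr11:69580359-69591873 on the plus strand, and p53 protein was not measured in these files.

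Neither of the feedback genes of p53 passed the test. *Mdm2*, the ligase that limits p53, had 10.3, 8.85 and 9.73 FPKM in WT and 11.7, 9.71 and 13.6 FPKM in TRIM24C52/55A livers. Replicates 1 and 3 of the knockin were above every WT liver, and replicate 2 was among them. The log2 fold change was 0.24 (95% interval -0.04 to 0.53, adjusted p = 0.285, limma). *Ccng1*, cyclin G1, which recruits a phosphatase to MDM2, had 14.2, 11.8 and 13.7 FPKM in WT and 14.8, 8.50 and 19.9 FPKM in TRIM24C52/55A livers. The knockin values enclosed the WT values on both sides, so the interval was wide, -0.53 to 0.62 around a log2 fold change of 0.05 (adjusted p = 0.939, limma).

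*Cdkn1a* encodes p21, the inhibitor of cyclin-dependent kinases that carries out much of the p53 arrest, and lies at chr17:29090979-29100722 on the plus strand. It had 33.5, 17.0 and 18.0 FPKM in WT and 36.5, 32.0 and 54.2 FPKM in TRIM24C52/55A livers. WT replicate 1 was close to 2 of the knockin livers and above knockin replicate 2, so the groups overlap. The means of 22.8 ± 9.27 and 40.9 ± 11.7 FPKM (SD, n = 3 each) differ by a ratio of 1.79, with a log2 fold change of 0.85 and a 95% interval of 0.23 to 1.47. The unadjusted p was 0.0136 and the adjusted p 0.102 (limma), so *Cdkn1a* did not pass the threshold. The exact two-sided permutation test over the livers gave p = 0.20, where 0.10 is the smallest that 3 against 3 allows. Without WT replicate 1 the log2 fold change was 1.15 and the adjusted p 0.0369 (limma), and in the other alternatives the adjusted p ran from 0.0769 to 0.291. The liver that sets this call also had the highest haemoglobin: the summed erythroid markers were 1799.6 FPKM in WT replicate 1 and 522 to 939 FPKM in the other 5 livers. The globin genes carry that sum, and *Alas2*, the other gene of the list, was lowest in WT replicate 1, at 52.8 FPKM. Its part in the *Cdkn1a* level was not tested. *Cdkn1a* overlaps *AC167363.2* on the other strand, and the sources do not say that counting used strand.

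The 3 tested genes whose centred log2 values over the 6 livers came nearest to those of *Cdkn1a* were *S100a11*, *Tuft1* and *Pim1*. Their root mean square differences from *Cdkn1a* were 0.171, 0.178 and 0.241 on the log2 scale. *S100a11*, a calcium-binding protein, had 19.97, 12.5 and 15.3 FPKM in WT and 24.1, 26.3 and 41.0 FPKM in TRIM24C52/55A livers. *Tuft1* had 2.23, 1.39 and 1.40 FPKM against 2.84, 3.07 and 5.52 FPKM. *Pim1*, a serine/threonine kinase, had 10.2, 5.87 and 4.75 FPKM against 8.82, 8.89 and 11.3 FPKM. Since the choice fixed the shared pattern, no test is given for these genes.

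*Phlda3* encodes a small protein with a pleckstrin homology domain that competes with Akt for membrane lipid and so restrains Akt. The gene lies at chr1:135766119-135769136 on the plus strand. It was the least abundant member in WT, with 0.787, 0.780 and 1.08 FPKM, and had 2.24, 1.91 and 3.52 FPKM in TRIM24C52/55A livers. The lowest knockin liver was above the highest WT liver. The means were 0.881 ± 0.169 and 2.56 ± 0.849 FPKM (SD, n = 3 each), a ratio of 2.90. On the log2(FPKM + 1) scale, which understates the change of a low gene, the difference was 0.90 (standard error 0.17, 95% interval 0.51 to 1.29, adjusted p = 0.0197, limma). With a pseudocount of 0.1 it was 1.40. The exact permutation test gave p = 0.10, the smallest possible. From the depth of the low values these levels stand for roughly 18 to 25 fragments per WT library and 42 to 81 per knockin library, few enough for counting error to matter.

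The *Phlda3* call was close to the threshold. It was lost with no filter on low values (adjusted p = 0.0728) and when WT replicate 1 (0.0724), WT replicate 2 (0.0648), WT replicate 3 (0.0547) or TRIM24C52/55A replicate 1 (0.0629) was left out, by limma in each case. The log2 fold change stayed between 0.71 and 1.40 in all 15 alternatives. Of its relatives, *Phlda1* had 13.1, 39.9 and 16.9 FPKM in WT and 12.4, 25.1 and 53.8 FPKM in TRIM24C52/55A livers (log2 fold change 0.30, 95% interval -0.91 to 1.51, adjusted p = 0.790, limma), an interval that includes the *Phlda3* value. *Phlda2* was under the filter, with means of 0.0906 FPKM in WT and 0.424 FPKM in TRIM24C52/55A livers and its highest value, 0.970 FPKM, in TRIM24C52/55A replicate 2.

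**Figure D2:**
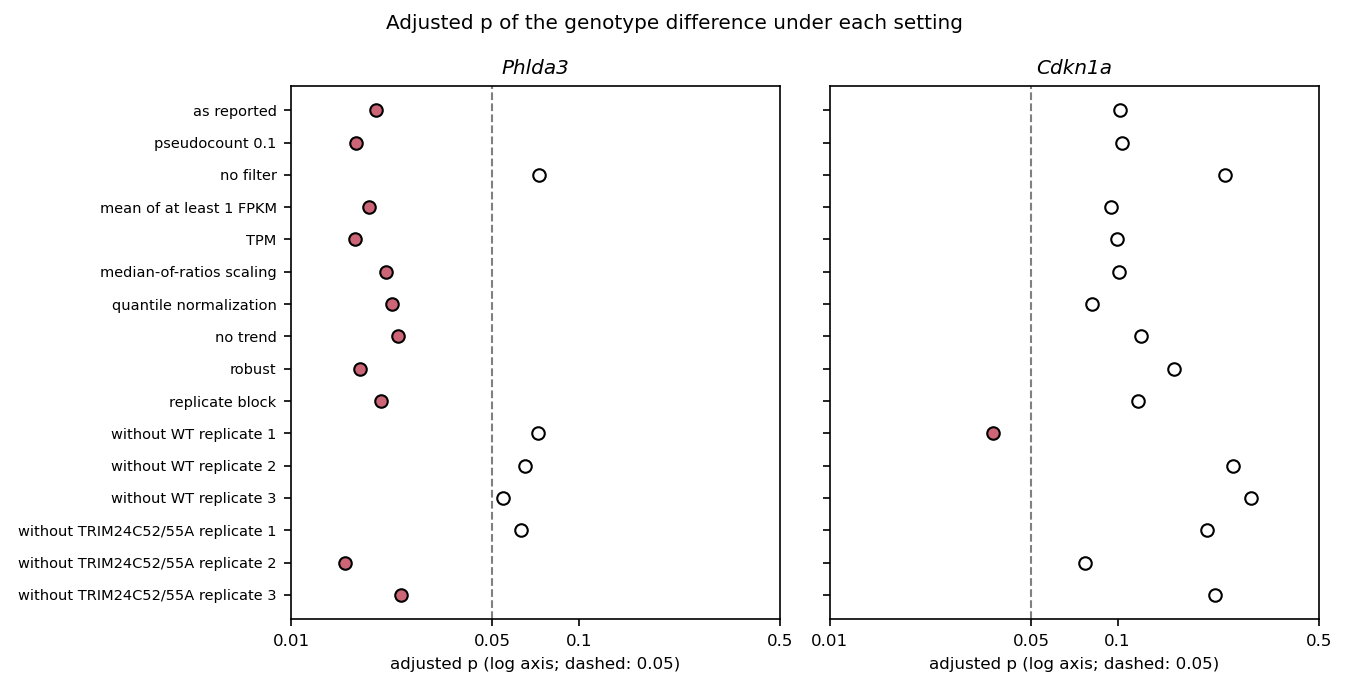
Adjusted p (log axis) of the difference between genotypes for Phlda3 and Cdkn1a as reported and under each of 15 alternatives. Filled points lie under 0.05, marked by the dashed line. Phlda3 lies under it as reported and in 10 alternatives, and Cdkn1a in 1, the fit without WT replicate 1.

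The apoptosis members besides *Phlda3* did not pass the test. *Bax*, which permeabilises the mitochondrial outer membrane, had 19.3, 14.96 and 19.2 FPKM in WT and 17.0, 17.6 and 18.0 FPKM in TRIM24C52/55A livers. All 3 knockin livers lay inside the WT range, and the log2 fold change was -0.01 (95% interval -0.26 to 0.24, adjusted p = 0.961, limma). The interval the files give for *Bax* is 64.6 kb long, beside 5.20 kb in GENCODE M21, and overlaps the gene *Gm45808* on the same strand, so reads of both may be mixed. *Trp53inp1*, a nuclear and autophagy protein that strengthens p53 responses, had 16.5, 19.9 and 18.6 FPKM against 17.3, 16.9 and 18.1 FPKM. Here too the knockin livers lay within the WT range (log2 fold change -0.07, 95% interval -0.28 to 0.14, adjusted p = 0.717, limma).

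Neither of the sestrins, stress proteins that restrain mTORC1 and support antioxidant defence, passed the test. *Sesn1* had 5.49, 4.50 and 3.53 FPKM in WT and 5.21, 5.16 and 5.09 FPKM in TRIM24C52/55A livers. The knockin livers were tightly grouped inside a wider WT range (log2 fold change 0.17, 95% interval -0.13 to 0.48, adjusted p = 0.493, limma). *Sesn2* had 3.89, 3.52 and 4.47 FPKM against 3.63, 4.37 and 3.67 FPKM (log2 fold change -0.02, 95% interval -0.28 to 0.24, adjusted p = 0.943, limma). Each sestrin gene overlaps another on its strand, *9930024M15Rik* and *Gm12981*. *Zmat3*, a zinc finger protein that binds RNA and affects splicing, had 1.99, 1.60 and 1.61 FPKM against 2.09, 1.32 and 2.34 FPKM. Its knockin livers spread to both sides of the WT livers (log2 fold change 0.08, 95% interval -0.27 to 0.43, adjusted p = 0.809, limma).

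**Figure D3:**
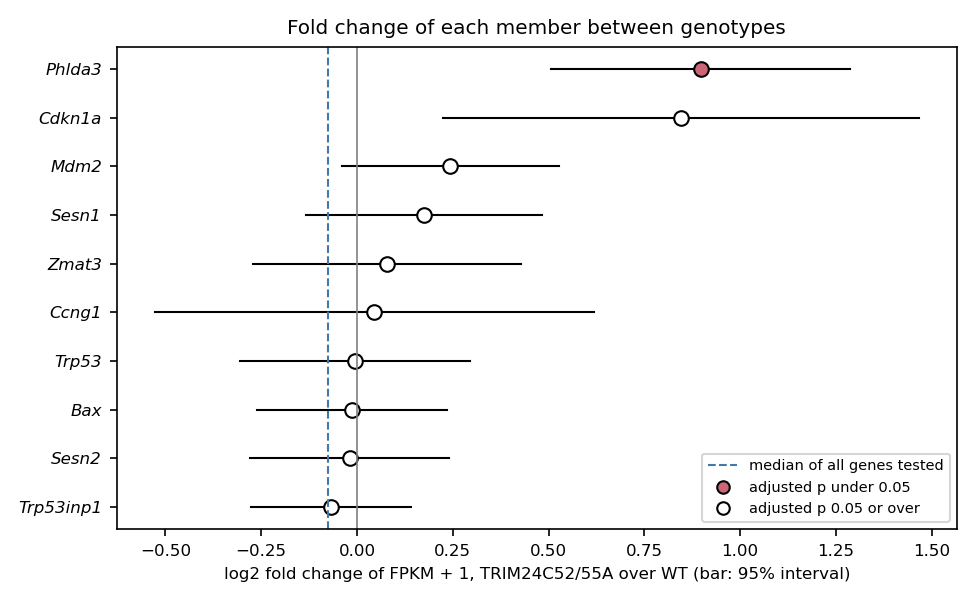
Log2 fold change of FPKM + 1 in TRIM24C52/55A over WT livers for each member, with its 95% interval from limma. The filled point has an adjusted p under 0.05, and the dashed line marks the median of all genes tested, -0.08. Phlda3 and Cdkn1a lie apart from the other 8 members, and their intervals do not include 0.

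Several members shared an order among the knockin livers. In 6 of the 10, namely *Cdkn1a*, *Mdm2*, *Ccng1*, *Trp53inp1*, *Zmat3* and *Phlda3*, replicate 3 was highest, replicate 1 came next and replicate 2 was lowest. That order held for 15.7% of all genes tested and for 12 of 43 other p53 targets (27.9%). *Trp53* had the opposite order, with replicate 2 highest and replicate 3 lowest, which held for 22.2% of all genes tested. These are shares of genes within 6 livers, given as a description, and the genes are not independent of one another. Among the knockin livers *Ccng1* had the largest coefficient of variation of the members, 39.7%, against 9.37% in WT, while in WT it was *Cdkn1a*, with 40.6%.

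**Figure D4:**
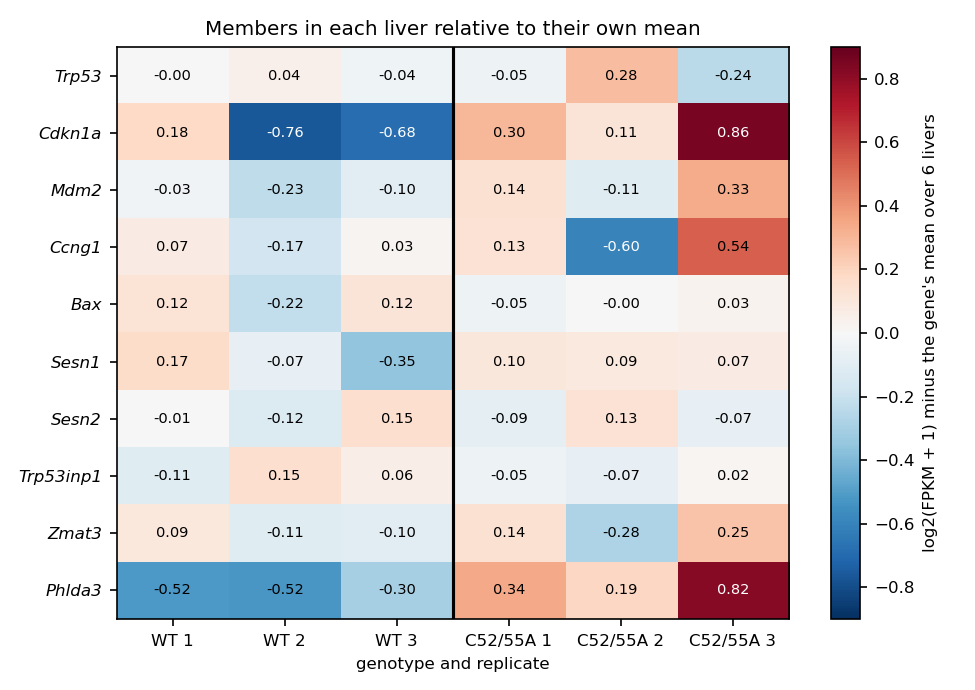
Log2(FPKM + 1) of each member in each liver minus the mean of that gene over the 6 livers, in colour and printed in each cell. TRIM24C52/55A replicate 3 holds the highest cells, 0.86 for Cdkn1a and 0.82 for Phlda3, while replicate 2 holds -0.60 for Ccng1.

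TRIM24C52/55A replicate 2, the lowest knockin liver in those 6 members, also differed from the rest in adipocyte RNA. *Adipoq*, *Plin1*, *Lep* and *Retn*, which define adipocytes, were 4.55, 3.32, 3.98 and 1.59 FPKM there and at most 0.127 FPKM in any other liver. The other 5 genes of the list were found in every liver. *Fabp4* and *Adrb3* were highest in that library, at 45.5 and 12.4 FPKM, and *Cfd*, *Cidec* and *Plin4*, at 2.54, 6.12 and 2.06 FPKM, were highest there among the knockin livers and below every WT liver. The 9 adipocyte markers together summed to 82.0 FPKM in that library, 16.1 and 22.8 FPKM in the other knockin livers and 39.7 to 52.9 FPKM in WT. Without that library *Phlda3* had a log2 fold change of 1.03 (adjusted p = 0.0153, limma), *Cdkn1a* 1.0004 (adjusted p = 0.0769) and *Mdm2* 0.36 (adjusted p = 0.0707). The part of adipocyte RNA in the lower target levels of this library was not tested.

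Levels per length ranked the members in much the same order in both genotypes. In WT the order by mean FPKM was *Cdkn1a*, *Trp53inp1*, *Bax*, *Ccng1*, *Trp53*, *Mdm2*, *Sesn1*, *Sesn2*, *Zmat3* and *Phlda3*. The ranges overlapped for 4 pairs of neighbours: *Cdkn1a* with *Trp53inp1*, *Trp53inp1* with *Bax*, *Ccng1* with *Trp53*, and *Sesn1* with *Sesn2*. In the TRIM24C52/55A liver *Cdkn1a* stood above the range of *Bax*, its next neighbour, and *Phlda3* ranked above *Zmat3*, with overlapping ranges.

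Genes that control p53 were measured next. Of 29 such genes, 26 were tested, 1 was lower and none higher, 3.85% in all beside the background of 7.72%, with a median log2 fold change of 0.00. *Trim24* itself had 5.54, 4.85 and 5.96 FPKM in WT and 6.15, 4.31 and 8.46 FPKM in TRIM24C52/55A livers (log2 fold change 0.14, adjusted p = 0.713, limma). The knockin changes codons, so this level does not check the genotype. *Mdm4*, the partner of MDM2 that holds p53 inactive, had 4.73, 4.88 and 4.72 FPKM in WT and 6.67, 5.01 and 6.96 FPKM in TRIM24C52/55A livers. Every knockin liver was above every WT liver, though replicate 2 by little, and the difference of 0.31 on the log2 scale did not pass (adjusted p = 0.169, limma). Without TRIM24C52/55A replicate 2 it was 0.44 and passed (adjusted p = 0.0270). *Trim28* and *Trim33*, the closest relatives of *Trim24*, had log2 fold changes of 0.02 and -0.16 (adjusted p = 0.947 and 0.534, limma).

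The control gene that fell was *Kmt5a*, which methylates histone H4 and also p53. It had 20.3, 19.2 and 19.0 FPKM in WT and 15.3, 16.1 and 15.5 FPKM in TRIM24C52/55A livers. The groups were well apart, with a log2 fold change of -0.30 (adjusted p = 0.0497, limma). That call stood at the threshold and was lost in 11 of 15 alternatives, with adjusted p up to 0.227.

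A wider list of p53 targets was read beside the members. Of 51 targets besides the members, 43 were tested. Of these, 1 rose (2.33%, beside 1.64% of all genes) and 6 fell (14.0%, beside 6.09%). Over all genes, too, most calls were in the lower direction, 744 of 944. The median log2 fold change was -0.08, as over all genes. The calls numbered 1 without WT replicate 1, WT replicate 3 or TRIM24C52/55A replicate 1 and with no filter, and 3 without WT replicate 2 or TRIM24C52/55A replicate 3. *Plk2*, a stress-responsive kinase, had 3.97, 3.82 and 3.80 FPKM in WT and 7.53, 5.35 and 7.88 FPKM in TRIM24C52/55A livers. All knockin livers were above all WT livers (log2 fold change 0.69, adjusted p = 0.0225, limma). The call was lost without any 1 of WT replicates 1 to 3 or TRIM24C52/55A replicates 1 and 3, and with no filter, with adjusted p of 0.0528 to 0.0918.

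*Perp*, a desmosomal membrane protein that acts in p53 apoptosis, fell with the smallest adjusted p of the list. It had 64.4, 66.3 and 73.4 FPKM in WT and 43.4, 49.6 and 43.1 FPKM in TRIM24C52/55A livers. The log2 fold change was -0.57 (adjusted p = 0.00988, limma), and the call held in all 15 alternatives. *Tap1*, a subunit of the peptide transporter for antigen presentation, fell from 14.2, 9.61 and 11.8 FPKM to 5.87, 7.89 and 7.56 FPKM (log2 fold change -0.66, adjusted p = 0.0371, limma), a call lost in 8 of 15 alternatives. *Cgref1*, a secreted growth regulator, fell by 0.48 on the log2 scale (-1.04 with a pseudocount of 0.1, adjusted p = 0.0494, limma), and the call was lost in 10 of 14 alternatives. It reached the filter through the WT livers alone, with means of 0.995 FPKM in WT and 0.425 FPKM in TRIM24C52/55A livers. Without it and the other 2 targets that reached the filter in 1 genotype, 5 of 40 fell (12.5%, beside 5.98%). *Ei24*, an endoplasmic reticulum protein of autophagy, fell by 0.40 (adjusted p = 0.0458, lost in 10 of 15). *Aldh4a1*, the mitochondrial enzyme of proline breakdown, fell by 0.39 (adjusted p = 0.0251, lost in 7 of 15). *Pank1*, which starts coenzyme A synthesis, was the sixth and is named outside the naming rule. It fell by 0.37 (adjusted p = 0.0331, lost in 10 of 15). With median-of-ratios scaling 1 of the 6 remained, *Perp*, and *Plk2* was again the 1 that rose.

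**Figure D5:**
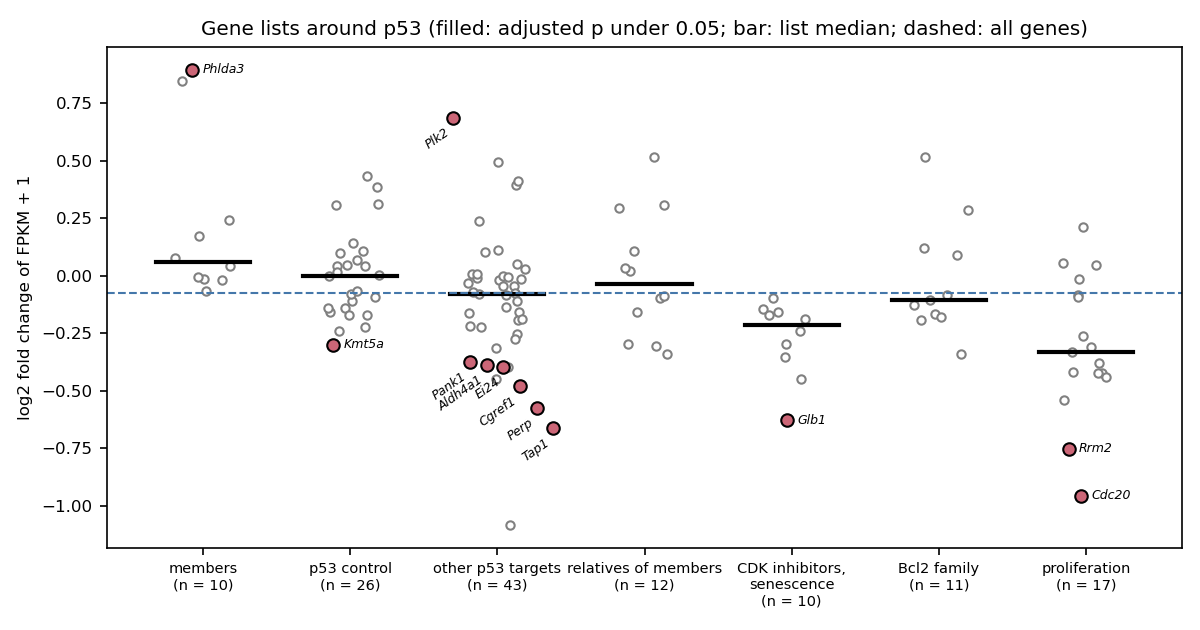
Log2 fold change of FPKM + 1 for every tested gene of 7 lists around p53, with the number tested under each name. Filled, labelled points have an adjusted p under 0.05, thick bars are list medians, and the dashed line is the median of all genes. The filled points other than Phlda3 and Plk2 lie below 0.

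*Eda2r*, a death receptor and p53 target chosen here after its values were seen, had the same order among the knockin livers as the 6 members named above. It had 0.148, 0.479 and 0.375 FPKM in WT and 0.961, 0.193 and 1.79 FPKM in TRIM24C52/55A livers. Replicates 1 and 3 of the knockin lay above WT and replicate 2 did not (log2 fold change 0.50, adjusted p = 0.335, limma). *Eda2r* reached the filter through the knockin livers alone, with means of 0.334 FPKM in WT and 0.983 FPKM in TRIM24C52/55A livers, so a difference was built into its selection. *Gdf15*, *Gadd45a* and *Bbc3*, also chosen afterwards as commonly read p53 targets, had log2 fold changes of -0.27, 0.24 and -0.08 (adjusted p = 0.381, 0.519 and 0.863, limma).

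Genes that p53 lowers through p21 and the DREAM repressor, which act in the S phase and mitosis, were measured as a readout below p21. Of 26 such genes, 17 were tested, none rose and 2 fell (11.8%, beside 6.09% of all genes). Of the 17, *Ccna2*, *Ccnb2*, *Top2a* and *Cdc20* reached the filter of 0.5 FPKM through the WT livers alone, so a difference was built into their selection. Among the other 13 genes 1 fell, *Rrm2* (7.69%, beside 5.98% of the 11831 genes that reached the filter in both genotypes). A log2 fold change below 0 was found for 10 of the 13, and for 7768 of those 11831 genes, and the groups did not overlap in 5 of the 13, all in the lower direction, beside 22.4%. The median over the 13 was -0.26. *Rrm2*, a subunit of ribonucleotide reductase, had 2.81, 2.76 and 2.60 FPKM in WT and 0.971, 1.31 and 1.37 FPKM in TRIM24C52/55A livers (log2 fold change -0.75, adjusted p = 0.00804, limma). *Cdc20*, an activator of the anaphase-promoting complex, had 0.831, 1.92 and 1.46 FPKM against 0.213, 0.163 and 0.276 FPKM (log2 fold change -0.96, or -2.19 with a pseudocount of 0.1, adjusted p = 0.0159, limma), and its knockin mean of 0.218 FPKM was under the filter. The *Rrm2* call held in all 15 alternatives, and that of *Cdc20* was lost with no filter and without WT replicate 3 or TRIM24C52/55A replicate 1. Of the 9 genes left out of the test, 3 had every knockin liver below every WT liver, beside 427 of all 9303 genes left out. *Ccnb1*, the mitotic cyclin, was 0.514 to 0.921 FPKM in WT and 0 to 0.141 FPKM in TRIM24C52/55A livers. *Plk1*, a mitotic kinase, was 0.555 to 0.613 FPKM against 0.153 to 0.205 FPKM, and *Ccne1*, the cyclin of S phase entry, 0.376 to 0.540 FPKM against 0.135 to 0.249 FPKM. The groups overlapped in the other 6, which include *Mki67*, the standard proliferation marker, at 0.110 to 0.276 FPKM in WT and 0.0636 to 0.207 FPKM in TRIM24C52/55A livers.

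Relatives of the members and neighbouring pathways gave few calls. Of 12 tested paralogues of the members none passed the test (limma), with 2 at an unadjusted p under 0.05. None of 11 tested genes of the Bcl2 family passed, with 1 at an unadjusted p under 0.05. Both counts stand beside 23.6% of all genes at that p. Among 10 tested genes of the list of senescence genes and CDK inhibitors, which leaves out *Cdkn1a* as a member, 1 fell, beside the background of 6.09% lower, and all 10 had a log2 fold change below 0, also with median-of-ratios scaling, where 5936 of 12209 genes did. Of the 10, 1 reached the filter through the WT livers alone. The gene that fell was *Glb1*, the lysosomal galactosidase read as a senescence marker. It had 3.75, 4.79 and 4.95 FPKM in WT and 2.37, 3.24 and 2.09 FPKM in TRIM24C52/55A livers (log2 fold change -0.63, adjusted p = 0.0394, limma), and the call was lost in 9 of 15 alternatives. *Cdkn2a*, which encodes the MDM2 inhibitor ARF, was under the filter, at 0.102 to 0.391 FPKM in WT and 0.0495 to 0.347 FPKM in TRIM24C52/55A livers.

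Cell type markers placed these libraries in liver. The 5 hepatocyte markers measured, *Apoa1*, *Ttr*, *Serpina1c*, *Cps1* and *Hnf4a*, summed to between 15607 and 18289 FPKM, and *Cps1* rose. On the adipocyte list *Cidec* and *Plin4*, lipid droplet proteins that fatty hepatocytes also make, fell and *Adrb3* rose. Summed Kupffer cell and macrophage markers were 166 to 216 FPKM in WT and 144 to 193 FPKM in TRIM24C52/55A livers, and endothelial markers 99.6 to 106 FPKM against 88.1 to 99.9 FPKM, with *Lyve1* the endothelial gene that fell. Stellate cell markers were 119 to 128 FPKM against 110 to 142 FPKM, and cholangiocyte markers 28.5 to 53.8 FPKM against 21.8 to 34.0 FPKM. Lymphocyte markers were 3.22 to 3.62 FPKM against 4.12 to 4.48 FPKM. *Cd4*, which reached the filter through the knockin livers alone, was the gene of that list that rose, and without it the sum was 2.87 to 3.21 FPKM against 2.15 to 2.62 FPKM. Neutrophil markers were 4.83 to 11.3 FPKM against 2.04 to 7.88 FPKM. On the pancreas list *Cela1* rose, from 3.50 to 8.26 FPKM in WT to 10.8 to 16.1 FPKM in the knockin, while *Cpa1* and *Amy2a5*, which define pancreatic acinar cells, were at most 0.206 FPKM in any liver. The part of these cells in the levels of *Phlda3*, *Plk2* and the proliferation genes was not tested.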

How the data were processed

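RNA from 3 WT and 3 TRIM24C52/55A livers was sequenced. Each mouse has 1 table of FPKM, deposited by the authors. Their processing notes name GRCm38, bcl2fastq, Salmon 0.14.0 and DESeq2 1.30.0, and the step that produced FPKM is not given in the sources used here. Strand use in counting is not stated. Transcript levels scaled to a library total fall when a few abundant genes rise, which is why other scalings were tried.

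The members were matched by symbol. Members, lists, tests and the rule for naming genes were chosen with earlier results of these data known. That rule names all members, *Trim24*, *Mdm4*, *Trim28*, *Trim33*, up to 5 called genes per list and direction, relatives of a called member, and the 3 genes with the pattern nearest to *Cdkn1a*. *Eda2r*, *Gdf15*, *Gadd45a*, *Bbc3*, *Pank1*, *Zbtb16*, *Mki67*, *Ccna2*, *Ccnb2*, *Top2a*, *Ccnb1*, *Plk1* and *Ccne1* were named after their values were seen.

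Values were tested as log2(FPKM + 1), for genes whose mean over the libraries reached 0.5 FPKM, by limma 3.58.1 in R 4.3.3 (lmFit, eBayes with trend) with Benjamini-Hochberg adjustment over 12225 genes. The fit was tested on simulated data. Single members also had an exact two-sided permutation test. Nothing in the labels says how the mice were sampled beyond 1 library each, so p-values measure the spread between these livers. Alternatives were pseudocount 0.1, a filter at a mean of 1 FPKM or none, TPM, median-of-ratios and quantile scaling, no trend, robust fitting, a replicate block and each library left out. Fragments per gene were estimated from the steps between low FPKM in genes with a single transcript, assuming 200 bases lost per transcript. Gene loci came from GENCODE M21 and promoters from RefSeq (GRCm38.p6). Tables and permutation tests used scipy 1.17.1, numpy 2.4.6 and pandas 2.3.3 in Python 3.11.15, and plots matplotlib 3.10.9. *Alb* and *Trp63* were not analysed here.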

Additional observations from a re-analysis of the deposited data

How the results depend on the processing

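With a group of 3 livers, 1 library can decide a call. The log2 fold changes of *Phlda3*, *Cdkn1a*, *Mdm2* and *Sesn1* stayed above 0 in all 15 alternatives, and those of the other members crossed 0 in some. The cause of each change below was not tested. With no filter, low genes enter both the fit and the adjustment, and leaving out a library removes a sample.

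The 944 genes called became 347 with no filter, 1488 with TPM, 578 with the replicate block, and 294 to 1280 with a library left out (311, 475 and 300 without WT replicates 1, 2 and 3, and 294 without TRIM24C52/55A replicate 1). The 1 member called became 0 with no filter and 0 to 1 with a library left out (limma, 2 at an unadjusted p under 0.05 with no filter, 1 without WT replicate 2 or 3, 2 without TRIM24C52/55A replicate 1). Without WT replicate 1 the member called was *Cdkn1a*. The 1 control gene became 0 with pseudocount 0.1, no filter, median-of-ratios scaling, quantile normalization, no trend and the replicate block (4 to 5 at an unadjusted p under 0.05 in each), and 0 to 2 with a library left out (2 without TRIM24C52/55A replicate 2 and 0 otherwise, with 2 to 4 at an unadjusted p under 0.05). The 7 other targets became 1 with no filter, 2 with median-of-ratios scaling, 2 with quantile normalization, 3 with the replicate block, and 1 to 8 with a library left out. The 2 proliferation genes, an alternative chosen after seeing the data, became 1 with the filter at 1 FPKM, 7 with TPM, and 1 to 2 with a library left out.

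Signs turned, without a call, with median-of-ratios scaling and quantile normalization for *Trp53* (0.090 and 0.096), *Bax* (0.084 and 0.106), *Sesn2* (0.062 and 0.044) and *Trp53inp1* (0.030 and 0.057), and with TPM for *Ccng1* (-0.016) and *Trim28* (-0.046). With a library left out the log2 fold changes ran from -0.15 to 0.12 for *Trp53*, -0.21 to 0.36 for *Ccng1*, -0.13 to 0.046 for *Bax*, -0.089 to 0.053 for *Sesn2*, -0.029 to 0.24 for *Zmat3*, -0.061 to 0.35 for *Trim24* and -0.082 to 0.078 for *Trim28*.

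Replicate numbers did not pair the livers. Deviations of same-numbered libraries from their group means correlated at -0.123, -0.0988 and 0.00 across genes, and 0 of the 6 libraries correlated best with its own number. In the replicate block *Phlda3* kept its call (adjusted p = 0.0206, limma), and *Cdkn1a* stayed outside it (0.117).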

Other observations

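Lists outside p53 gave 1 call each, beside the 7.72% of all genes that were called and the 8005 of 12225 with a log2 fold change below 0. Of 10 tested genes of the integrated stress response, which shares *Sesn2* and other stress genes with p53, 9 had a log2 fold change below 0 (8 of the 8 that reached the filter in both genotypes) and 1 fell, *Fgf21*, the fasting hormone of the liver. It had 19.2, 7.44 and 10.1 FPKM in WT and 4.07, 4.14 and 3.02 FPKM in TRIM24C52/55A livers (log2 fold change -1.39, adjusted p = 0.0248, limma). The call was lost in 4 of 15 alternatives: with no filter, without WT replicate 3 and without TRIM24C52/55A replicate 1 or 3.

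Of 11 tested genes of the glucocorticoid and fasting response, 10 had a log2 fold change below 0 and 1 fell, the clock gene *Per1*. It had 5.39, 10.97 and 8.31 FPKM in WT and 3.10, 4.09 and 2.91 FPKM in TRIM24C52/55A livers (log2 fold change -1.04, adjusted p = 0.0268, limma). The call was lost in 5 of 15 alternatives: with no filter, without WT replicate 2 or 3 and without TRIM24C52/55A replicate 1 or 3. The gene that lay above 0 was *Zbtb16*, a transcription factor that glucocorticoids raise, named after its values were seen. It had 13.2, 2.41 and 1.51 FPKM in WT and 12.9, 18.3 and 8.68 FPKM in TRIM24C52/55A livers (log2 fold change 1.47, adjusted p = 0.170, limma). As with *Cdkn1a*, WT replicate 1 stood among the knockin livers.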
